A study of Mus musculus with 57 samples.

Results

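H3K27me3, trimethylation of lysine 27 of histone H3, was compared between brain cortex and gastrocnemius, the large calf muscle, in all libraries of the series made with an antibody to this mark. These are 19 of the 57 libraries of the series, 9 from cortex and 10 from gastrocnemius, and the other 38 were made with antibodies to H3K4me3 and H3K27ac. All mice, of both tissues, were PSAPP animals aged 13 months, which carry a chimeric mouse and human APP with the Swedish mutation (Mo/HuAPP695swe) together with a mutant human presenilin 1. No mouse labelled as free of the transgenes was analysed here, and 1 mouse departed from its label as described below. The mice were singly housed on a modified AIN-93 diet, in which food intake was fixed, and were of both sexes, which were not compared here. The libraries come from 10 mice, of which 9 gave both tissues. Both tissues are mixtures of cell types, and a promoter with the mark in part of the cells cannot be told apart from one with less of it in all cells.

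H3K27me3 is written by Polycomb repressive complex 2, whose catalytic subunit is EZH2 or EZH1, and is bound by Polycomb repressive complex 1. It covers the promoters of genes that are kept silent, often as wide domains over developmental transcription factors, and the set of marked genes differs between cell lineages. In development it is found over the genes of lineages that a cell did not take, such as muscle determination genes in neurons. Promoters rich in CG dinucleotides are typical targets of the complex, and H3K27ac, which sits on the same lysine, and H3K4me3 are marks of active promoters.

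The upstream sequences of 8 promoters show the range of base composition among promoters that this mark covered in 1 tissue or in both. Each is the 250 bases before the start of the gene from the RefSeq promoter table of GRCm38.p6, the assembly also called mm10, with each CG dinucleotide in capitals. Myf5, Eya4, Ckm and Flnc were marked in cortex, Pou3f3, Kcna2 and Eno2 in gastrocnemius, and Neurod2 in both tissues. They hold from 3 CG (Myf5) to 35 CG (Eya4), with 6 in Ckm, 13 in Flnc, 15 in Pou3f3, 18 in Kcna2, 9 in Eno2 and 11 in Neurod2. Of the 27025 promoters of that table, 91.7% hold at least 1 CG and 38.2% hold at least 10 in the same 250 bases. A CG reads the same on both strands, and no other motif was searched.
Myf5, chr10:107486135-107486384, minus strand: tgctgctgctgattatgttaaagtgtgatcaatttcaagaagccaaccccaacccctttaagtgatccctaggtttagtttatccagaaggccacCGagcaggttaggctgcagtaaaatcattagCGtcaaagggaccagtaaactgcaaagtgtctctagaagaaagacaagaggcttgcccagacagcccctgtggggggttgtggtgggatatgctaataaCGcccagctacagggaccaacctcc
Eya4, chr10:23349944-23350193, minus strand: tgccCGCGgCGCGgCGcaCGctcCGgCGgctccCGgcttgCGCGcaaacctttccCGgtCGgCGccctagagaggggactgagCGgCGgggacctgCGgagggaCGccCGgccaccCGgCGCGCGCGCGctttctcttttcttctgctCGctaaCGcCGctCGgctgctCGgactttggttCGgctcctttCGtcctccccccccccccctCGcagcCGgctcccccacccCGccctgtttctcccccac
Ckm, chr7:19410844-19411093, plus strand: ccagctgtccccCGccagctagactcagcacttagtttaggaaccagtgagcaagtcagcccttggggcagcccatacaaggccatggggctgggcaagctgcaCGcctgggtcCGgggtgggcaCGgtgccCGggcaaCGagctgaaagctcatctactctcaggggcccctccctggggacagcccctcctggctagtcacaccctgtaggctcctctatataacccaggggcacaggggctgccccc
Flnc, chr6:29432903-29433152, plus strand: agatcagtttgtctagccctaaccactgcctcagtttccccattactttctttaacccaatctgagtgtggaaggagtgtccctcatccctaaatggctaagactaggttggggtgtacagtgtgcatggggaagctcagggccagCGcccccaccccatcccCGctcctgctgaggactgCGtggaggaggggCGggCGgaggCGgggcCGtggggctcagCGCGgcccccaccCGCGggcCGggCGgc
Pou3f3, chr1:42695518-42695767, plus strand: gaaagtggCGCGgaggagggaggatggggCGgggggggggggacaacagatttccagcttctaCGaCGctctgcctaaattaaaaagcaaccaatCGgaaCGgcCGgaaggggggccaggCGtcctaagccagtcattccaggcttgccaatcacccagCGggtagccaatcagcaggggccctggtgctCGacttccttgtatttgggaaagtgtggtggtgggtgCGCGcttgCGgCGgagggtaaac
Kcna2, chr3:107101317-107101566, plus strand: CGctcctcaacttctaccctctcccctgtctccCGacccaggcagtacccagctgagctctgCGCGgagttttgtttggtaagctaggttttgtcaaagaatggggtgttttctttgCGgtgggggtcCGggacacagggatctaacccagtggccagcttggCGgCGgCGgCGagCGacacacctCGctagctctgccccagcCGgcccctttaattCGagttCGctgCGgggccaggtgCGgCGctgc
Eno2, chr6:124769674-124769923, minus strand: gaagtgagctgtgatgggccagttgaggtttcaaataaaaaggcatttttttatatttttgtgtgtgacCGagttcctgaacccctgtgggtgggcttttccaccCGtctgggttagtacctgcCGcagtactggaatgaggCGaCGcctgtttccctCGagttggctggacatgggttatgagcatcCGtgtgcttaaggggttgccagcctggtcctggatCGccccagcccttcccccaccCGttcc
Neurod2, chr11:98329646-98329895, minus strand: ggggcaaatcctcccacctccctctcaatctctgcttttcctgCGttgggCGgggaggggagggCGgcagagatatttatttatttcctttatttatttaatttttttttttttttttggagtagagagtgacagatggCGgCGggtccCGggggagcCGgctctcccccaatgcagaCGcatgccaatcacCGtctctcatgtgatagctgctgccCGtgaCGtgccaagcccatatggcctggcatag

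Reads in peaks of chromosomes 1 to 19 ranged from 3.90 M to 6.35 M in the cortex libraries and from 2.99 M to 18.2 M in the gastrocnemius libraries. Gastrocnemius 5 had 18.2 M and stood apart from the other gastrocnemius libraries, which had at most 7.54 M. The tissue labels were checked by the marks of active promoters. H3K4me3 was higher in cortex at 9 of the 9 cortex markers tested, and higher in gastrocnemius at 8 of 10 gastrocnemius markers, with Mylpf and Actn3 higher in cortex. H3K27ac was higher in cortex at 9 of 9 cortex markers tested. It was higher in gastrocnemius at 6 of 9 gastrocnemius markers tested, with 0 higher in cortex. Aqp4, an astrocyte marker, had no peak of either active mark in any library, and the H3K4me3 peaks of Ckm, Tnnt3 and Tnni2 were absent from every cortex library. Of other cell types, the endothelial markers were higher in gastrocnemius at 4 of 4 promoters by H3K4me3, with summed levels of 46.8 to 57.4 RPM in cortex and 61.0 to 107 RPM in gastrocnemius. The connective tissue markers were higher there at 4 of 4 promoters as well, with sums of 12.7 to 29.0 RPM in cortex and 32.9 to 47.0 RPM in gastrocnemius. Satellite cell markers reached 2.35 RPM in cortex and 5.53 to 10.9 RPM in gastrocnemius, with Pax7 at 0 in every cortex library. Immune markers summed to 2.77 to 13.5 RPM and 5.32 to 7.78 RPM, with Aif1 at 0 in both tissues, and Schwann cell markers to 7.47 to 15.0 RPM and 0 to 23.1 RPM. The part of these cells in the H3K27me3 differences was not tested.

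1 mouse stood apart at the promoter of Prnp, the prion protein gene. In the Mo/HuAPP695swe transgene the coding sequence is placed behind the promoter of this gene, and where the reads at Prnp come from was not tested. H3K27me3 peaks over the start of Prnp, at position 131909928 of chromosome 2, held 41.6 to 64.0 RPM per kb in 8 cortex libraries and 36.1 to 72.0 in 9 gastrocnemius libraries, where RPM is reads per M reads in peaks. Cortex 5 and gastrocnemius 6, which are from the same mouse, had no H3K27me3 peak there. In the same mouse H3K27ac at Prnp was 4.91 in cortex, against 18.2 to 29.0 in the other cortex libraries, and 3.83 in gastrocnemius, against 21.9 to 39.5. H3K4me3 was 18.3 in cortex, against 42.8 to 55.9, and 10.1 in gastrocnemius, against 32.7 to 50.1. Both libraries are labelled PSAPP like the others, and this departure from the label was seen in the data. Peak numbers, counts of calls and counts of sites and TSSs found in 1 tissue are therefore also given without these 2 libraries, and those of gene lists where they move.

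Peak numbers, covered length and peak width overlapped between the tissues. Cortex libraries had 40995 ± 4970 peaks (mean ± SD, n = 9) and gastrocnemius libraries 35607 ± 4690 (n = 10), and this difference did not pass after adjustment over the 5 library values (exact permutation test, two-sided, p = 0.0276, adjusted p = 0.138). Without the mouse that lacked the Prnp peak the difference was 6834 peaks and passed (exact permutation p = 0.0083, adjusted p = 0.0413), so the call rests on whether its libraries are used. Peaks covered 203.9 to 299.3 Mb in cortex, with a median of 253.9 Mb, and 176.0 to 484.1 Mb in gastrocnemius, with a median of 260.0 Mb (exact permutation p = 0.843). The median peak width of a library was 4.93 ± 0.82 kb in cortex and 5.58 ± 1.23 kb in gastrocnemius (exact permutation p = 0.211). A peak lay within 1 kb of 5635 ± 241 transcription start sites (TSSs) in cortex and of 5992 ± 791 in gastrocnemius, of 24963 TSSs (exact permutation p = 0.221). These windows held 4.21 ± 0.36% of the peak reads in cortex and 4.32 ± 0.74% in gastrocnemius (exact permutation p = 0.683). With equally many top-scoring peaks in every library, the number of TSSs with a peak differed by -645, cortex minus gastrocnemius (exact permutation p = 0.00186, not adjusted). The deposited names of 2 cortex and 4 gastrocnemius libraries carry a code of the letter S and digits. It is called the S code here, and the labels do not say what it stands for. These 4 gastrocnemius libraries covered 275.5 to 484.1 Mb against 176.0 to 264.1 Mb in the other gastrocnemius libraries. Among the 7 cortex and 6 gastrocnemius libraries without an S code, cortex minus gastrocnemius was 5632 peaks (exact permutation p = 0.0559) and 46.3 Mb (exact permutation p = 0.0618). Among the 2 cortex and 4 gastrocnemius libraries with an S code the differences were 7990 peaks (exact permutation p = 0.133) and -91.2 Mb (exact permutation p = 0.333). The smallest p that 15 relabellings allow is 0.0667.

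**Figure D1:**
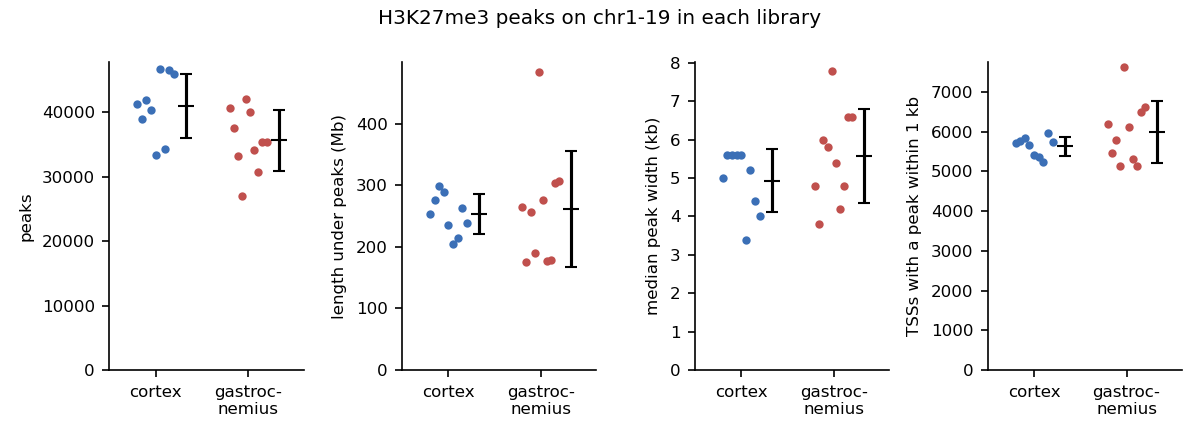
Number of H3K27me3 peaks, length under peaks in Mb, median peak width in kb and number of TSSs with a peak within 1 kb, on chromosomes 1 to 19. Each point is a library, in order of its replicate number, and the line with bars is the mean ± SD. The tissues overlap in every panel, and gastrocnemius 5, with 484.1 Mb, lies above the other gastrocnemius libraries in length.

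Libraries of the same tissue shared the places of their peaks more than libraries of different tissues did. Over 32653 consensus sites, which are merged peaks called in at least 3 libraries of a tissue, Spearman's rho between libraries was 0.686 to 0.802 among cortex libraries and 0.685 to 0.803 among gastrocnemius libraries. Between the tissues it was 0.343 to 0.402 for the 9 pairs from the same mouse and 0.321 to 0.413 for the 81 pairs from different mice. These are descriptions across sites, in which uncalled sites were set to 0, and depth differs between libraries. The rho of the pairs from the same mouse lay inside the range of those from different mice.

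Sites present in one tissue and absent from the other were more often sites of the cortex. Of the consensus sites, 8753 (26.8%) were called more often in cortex and 3931 (12%) more often in gastrocnemius (Fisher's exact test on calls, Benjamini-Hochberg, FDR under 0.1). Without the mouse that lacked the Prnp peak the counts were 8091 and 3261 of 31547. With the mouse as a block (exact McNemar test) they were 4101 and 1615. With equally many top-scoring peaks in every library they were 5644 and 3741 of 23911, so that the excess of cortex sites was smaller. In all, 1141 sites were called in every cortex library and no gastrocnemius library, and 551 in every gastrocnemius library and no cortex library. Leaving out the mouse that lacked the Prnp peak, these were 1343 and 572. The cortex sites of this kind were narrower, with a median width of 14.4 kb against 22.4 kb, and a TSS lay within 1 kb of 20.4% of them against 41.0% of the gastrocnemius sites. They held 4.15 ± 0.15% of the peak reads of cortex libraries, and the gastrocnemius sites held 3.19 ± 0.18% of those of gastrocnemius libraries.

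The 4683 sites called in all 19 libraries were wider, with a median of 40.4 kb, and held 60.5 ± 2.3% of the peak reads in cortex and 65.6 ± 5.9% in gastrocnemius. At these sites read counts could be compared directly. Counts were higher in cortex at 1597 sites (34.1%) and higher in gastrocnemius at 1549 sites (33.1%), by edgeR's quasi-likelihood test at an FDR under 0.1. The median difference among the called sites was 0.63 on the log2 scale where cortex was higher and -0.75 where gastrocnemius was higher. The difference was at least 2-fold at 327 and 527 of the called sites. Whatever the fold, the libraries of the tissues did not overlap in RPM at 419 of the 1597 and 520 of the 1549. This RPM holds no TMM factor, and sites that were not called were not counted for it. Without the mouse that lacked the Prnp peak, 1517 and 1517 sites were called.

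The 5 widest sites of gastrocnemius all overlapped a gene, and 2 of the 5 widest sites of cortex overlapped none, among sites called in every library of 1 tissue and no library of the other. Among sites called in every gastrocnemius library and no cortex library, the widest was a 184.2 kb site over Csmd2, a neuronal transmembrane gene, at chr4:128167801-128352000. Its peak reads ranged from 262 to 642 RPM, with a median of 500.4 RPM, and its called length from 81.2 to 155 kb. A further 140.2 kb site over Csmd2 was the third in width, at chr4:128439601-128579800. The others lay over Ptprn2, a protein of secretory vesicles, Cadps, which acts in the exocytosis of dense-core vesicles, and Ppp1r16b. Among sites called in every cortex library and no gastrocnemius library, the widest was 100.8 kb at chr2:128197401-128298200, overlapped no gene of the RefSeq set used, and held 79.9 to 201 RPM. The site over Nxn, an 89.8 kb site at chr11:76306801-76396600, held 149.8 to 276 RPM in the cortex libraries.

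At promoters, 2457 of 8754 TSSs tested (28.1%) had more H3K27me3 in cortex and 2475 (28.3%) had more in gastrocnemius. The value is the RPM that peaks placed in the 2 kb around the TSS, tested by limma on log2(RPM + 1) at an FDR under 0.1. Over all TSSs tested the median difference was 0.03 on that log2 scale, cortex minus gastrocnemius. Without the mouse that lacked the Prnp peak the counts were 2204 and 2309 of 8566. With TMM factors they were 2807 and 2460 of 8754, and with equally many top-scoring peaks 2354 and 2344 of 7808. By calls alone, 1327 TSSs (15.2%) were called more often in cortex and 1649 (18.8%) in gastrocnemius (Fisher's exact test, FDR under 0.1). Without that mouse these counts were 1213 and 1481, and with the mouse as a block (exact McNemar test) 682 and 889. Where a library called no peak over a TSS, no reads are recorded and the value was set to 0, so where a tissue was uncalled no fold of a single gene is given. The median differences of gene lists below include such genes, and their size then depends on the pseudocount of 1 RPM, so they are also given with a pseudocount of 4 RPM where they move by over 1.5 times. A TSS called in 1 tissue only was tested through its calls in that tissue, so its direction is tied to that filter.

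In every cortex library and no gastrocnemius library, 209 TSSs (0.837% of 24963) had a peak. In every gastrocnemius library and no cortex library there were 328 (1.31%), in all 19 libraries 2021 (8.1%), and in no library 14113 (56.5%). Without the mouse that lacked the Prnp peak the first 3 counts were 234, 340 and 2052. Around the first group, H3K27me3 in cortex averaged 4.08 RPM per kb just after the TSS and fell to 1.43 at nearly 10 kb downstream. Around the second group, gastrocnemius averaged 4.13 there and fell to 1.52. At the TSSs called in all 19 libraries the means were 5.10 in cortex and 4.80 in gastrocnemius, and 2.77 and 2.68 at nearly 10 kb, so the mark extended further from these promoters. CG dinucleotides within 1 kb of the TSS had a median of 23.0 per kb in the cortex group, 45.8 per kb in the gastrocnemius group, 37.0 per kb in the group called in all libraries and 28.5 per kb over all TSSs.

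**Figure D2:**
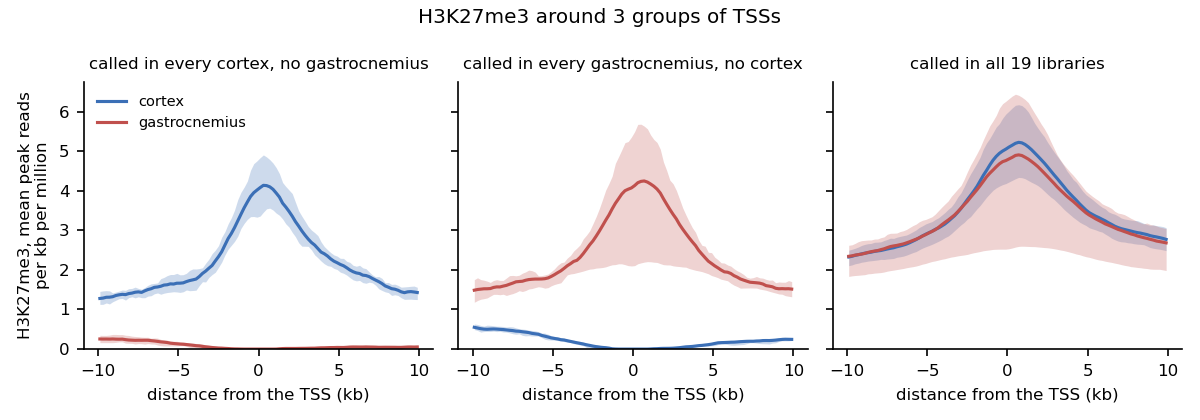
Mean H3K27me3 in RPM per kb from 10 kb upstream to 10 kb downstream of the TSS, in 200 bp bins, for the 209, 328 and 2021 TSSs of the groups. Lines are means over libraries and shading is the lowest to highest library. The level reaches 1.43 and 1.52 at the edge of the first and second group but 2.77 and 2.68 in the third. Groups were chosen by peaks within 1 kb of the TSS, so a high level there follows from the choice. The low edge of the gastrocnemius shading near the TSS lies at 2.11 in the second group.

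Muscle determination and contractile genes carried the mark in cortex, where 28.1% of all TSSs tested were higher. Of 18 myogenic factors 13 could be tested, of which 11 were higher in cortex and 1, Msc, a repressor of the MyoD family, in gastrocnemius, with a median difference of 1.90 against 0.03 over all TSSs tested. The median was 0.96 with a pseudocount of 4 RPM and 0.32 over the 4 members called in all 19 libraries. Of these 4, 1 was higher in cortex, beside 319 of the 2021 TSSs called in all 19 libraries. Msc (limma, adjusted p = 0.089) did not pass with equally many peaks or among the TSSs called in all 19 libraries. Myf5, which with Myod1 starts the muscle program, had 7.65 to 13.4 RPM in the cortex libraries, with a median of 8.68 RPM, and no peak in any gastrocnemius library. Myod1 had 8.19 to 14.6 RPM in cortex, with a median of 11.2 RPM, and a peak in 2 of 10 gastrocnemius libraries, the highest at 6.25 RPM. No cortex value of either gene lay below a gastrocnemius value. Vgll2, a cofactor of TEAD proteins in muscle, had 9.89 to 15.3 RPM in cortex and a peak in 1 of 10 gastrocnemius libraries, at 1.69 RPM. Eya4, a transcriptional coactivator, had 5.29 to 10.4 RPM in cortex and no peak in gastrocnemius. The calls of Myf5 and Eya4 each gave an adjusted p of 0.00018 by Fisher's exact test, and those of Myod1 0.0044. Pax7, the factor of muscle satellite cells, was marked in both tissues, with 15.3 ± 3.2 RPM in cortex and 10.9 ± 2.6 RPM in gastrocnemius (limma, adjusted p = 0.0094). Myog, Mef2a and Mef2d had no peak in any library.

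Among 26 muscle contractile and metabolic genes, 17 were tested and 15 were higher in cortex, beside 28.1% of all TSSs tested. Their median difference was 1.98, or 0.95 with a pseudocount of 4 RPM. By calls 15 were called more often in cortex (Fisher's exact test, FDR under 0.1), and 0 were called in all 19 libraries. The tested members thus entered mainly through their cortex calls, to which their direction is tied. When the mouse that lacked the Prnp peak was left out, 14 were higher in cortex. Tnnt3, the fast skeletal troponin T, had 3.71 to 9.57 RPM in cortex, with a median of 8.65 RPM, and no peak in gastrocnemius. Ckm, the muscle creatine kinase, had 6.95 to 9.98 RPM in cortex and a peak in 1 gastrocnemius library, at 3.35 RPM. The 1 member higher in gastrocnemius was Myh7, the slow myosin heavy chain, called in 10 of 10 gastrocnemius libraries and 4 of 9 cortex libraries, with 8.10 ± 1.64 RPM against 1.36 ± 2.08 RPM (limma, adjusted p = 2.2e-05). Mylpf, Myl1, Actn3, Casq1, Tnnc1 and Pygm had no peak in any library.

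Outside these lists, Flnc, the muscle filamin, had 7.90 to 17.7 RPM in cortex, with a median of 12.9 RPM, and no peak in gastrocnemius. It was among the 10 TSSs with the highest level in cortex of those called in every cortex and no gastrocnemius library. Mir133a-2, a muscle microRNA gene, was another, with 9.46 to 13.5 RPM under peaks of 35.0 kb in median width. Nfe2l2, a factor of the oxidative stress response, had 6.50 to 17.9 RPM, and Smad6, an inhibitor of BMP signalling, had 8.73 to 15.3 RPM.

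Genes of neuronal function carried the mark in gastrocnemius, where 28.3% of all TSSs tested were higher. Of 23 neuronal function genes 20 were tested, of which 16 were higher in gastrocnemius and 1, the potassium channel gene Kcnc1, in cortex, with a median difference of -1.46. The median was -0.76 with a pseudocount of 4 RPM and 0.05 over the 3 members called in all 19 libraries. Of these 3, 1 was higher in gastrocnemius, beside 140 of the 2021 TSSs called in all 19 libraries. Without the mouse that lacked the Prnp peak the counts were 14 and 0. Gria2, a subunit of AMPA receptors, had 4.33 to 12.8 RPM in gastrocnemius, with a median of 8.76 RPM, and no peak in cortex. Chrm1, a muscarinic acetylcholine receptor, had 4.39 to 13.6 RPM and Cacna1a, the pore of P/Q calcium channels, 3.41 to 11.4 RPM, again with no cortex peak. For each of these 3 genes the calls of the tissues did not overlap (Fisher's exact test, adjusted p = 0.00018). Snap25, a SNARE protein of synaptic vesicle fusion, had 4.29 to 10.5 RPM in gastrocnemius and a peak in 2 of 9 cortex libraries, the highest at 6.22 RPM, so its values overlapped.

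The next 5 genes are among the 10 TSSs with the highest level in gastrocnemius of those called in every gastrocnemius and no cortex library. Kcna2, a voltage-gated potassium channel, had 4.95 to 13.7 RPM there, with a median of 9.92 RPM. Eno2, the neuronal enolase, had 5.10 to 17.1 RPM, with a median of 10.02 RPM. Mir9-2, a microRNA gene of neural progenitors, had 7.03 to 15.6 RPM under peaks of 32.6 kb in median width. Ptch1, the receptor of hedgehog ligands, had 5.30 to 18.96 RPM, and Mycl, a member of the MYC family, 5.44 to 16.2 RPM. At each of these 5 genes gastrocnemius 5, the deepest library, held the lowest level among the gastrocnemius libraries.

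Of 28 forebrain and cortical neuron factors 25 were tested, with 8 higher in gastrocnemius, 1 higher in cortex (Neurog1, a factor of sensory neurons) and 16 past neither threshold. In every library 19 were called, beside 8.1% of all TSSs. The 8 are near the 28.3% of all TSSs tested, and without the mouse that lacked the Prnp peak 7 were higher in gastrocnemius and 0 in cortex. The median difference of the 25 was -0.02. It was 0.04 with TMM factors, and -0.11 without gastrocnemius 5 or with the mouse as a block. Pou3f3, a factor of upper-layer neurons, had 5.64 to 13.4 RPM in gastrocnemius and a peak in 1 cortex library, at 3.71 RPM. Neurod2, a factor of cortical excitatory neurons, had 8.20 to 16.0 RPM in cortex, with a median of 13.2 RPM, and 6.75 to 15.9 RPM in gastrocnemius, with a median of 12.3 RPM. Tbr1, a factor of deep-layer neurons, had 11.6 ± 2.8 RPM in cortex and 12.1 ± 4.0 RPM in gastrocnemius. The tissues overlapped in both, with differences of 0.06 ± 0.15 and -0.03 ± 0.18 (log2, SE; limma, adjusted p = 0.74 and 0.90). Over the same promoters the active marks were higher in cortex, H3K27ac by 2.49 at Neurod2 and 3.12 at Tbr1 on the log2 scale (limma, adjusted p = 1.7e-08 and 4.0e-11).

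Of 13 interneuron genes 10 were called in all 19 libraries, beside 8.1% of all TSSs. Of the 13 tested 4 were higher in cortex, near the 28.1% of all TSSs tested, and 0 in gastrocnemius. When the mouse that lacked the Prnp peak was left out 3 were higher in cortex. Gad1, which makes GABA, had 12.8 ± 2.3 RPM in cortex and 10.9 ± 2.8 RPM in gastrocnemius, a difference of 0.24 ± 0.15 (log2, SE; limma, adjusted p = 0.17). With TMM factors or equally many peaks, 8 of the 13 were higher in cortex, beside 2807 of 8754 and 2354 of 7808 TSSs tested. Among 14 glial genes tested, 3 were higher in cortex and 4 in gastrocnemius, near the shares of all TSSs tested (28.1% and 28.3%). The counts without that mouse were 2 and 4. Mbp, a protein of myelin, had a peak in 8 of 10 gastrocnemius libraries and in 0 of 9 cortex libraries (Fisher's exact test, adjusted p = 0.0044). Sox8, a factor of oligodendrocyte development, had 4.21 to 13.6 RPM in gastrocnemius and a peak in 1 of 9 cortex libraries. Aldh1l1, an astrocyte enzyme, went the other way, with 6.56 to 11.03 RPM in cortex and no peak in gastrocnemius.

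**Figure D3:**
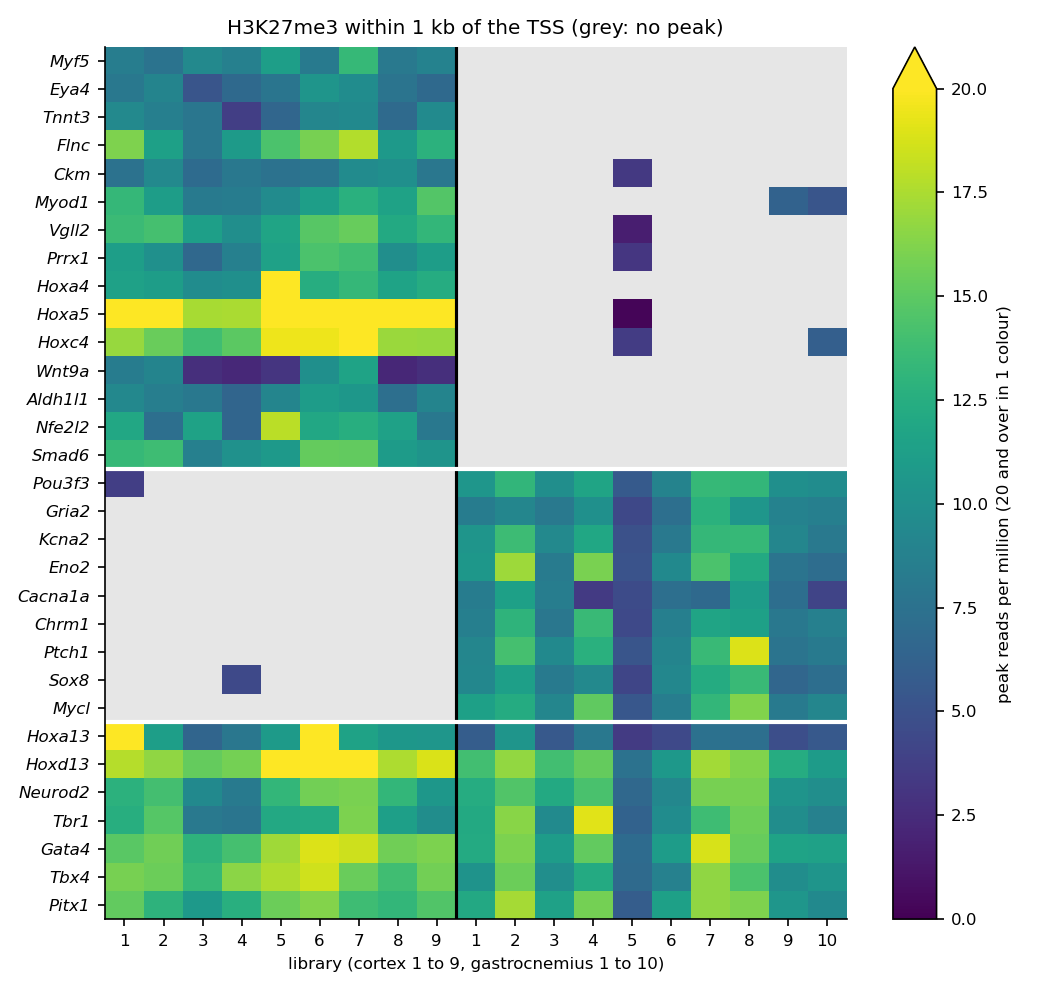
H3K27me3 within 1 kb of the TSS, in RPM, of named genes (rows) in the 19 libraries (columns). Grey marks a library without a peak, and levels of 20 RPM and over share 1 colour. The upper block holds genes marked in cortex, the middle block genes marked in gastrocnemius and the lower block genes marked in both tissues. Levels of gastrocnemius 5 are low in the middle and lower blocks, and Pou3f3 and Sox8 each have a peak in 1 cortex library.

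The Hox genes, which set position along the body axis, had more of the mark in cortex, and 23 of 39 were called in all 19 libraries, beside 8.1% of all TSSs. Of 39 Hox genes 38 were higher in cortex, beside 28.1% of all TSSs tested, and 0 in gastrocnemius, Hoxd1 being the 1 that did not pass, with a median difference of 0.86, and 38 also with TMM factors or equally many peaks. Neighbouring Hox genes share peaks, so these are not 38 independent measurements. Hoxa4 had 9.74 to 22.2 RPM in cortex, with a median of 11.6 RPM under peaks of 113 kb in median width, and no peak in gastrocnemius. Hoxa5 had 17.4 to 23.9 RPM in cortex and a peak in 1 gastrocnemius library, at 0.299 RPM. Hoxc4 had 13.9 to 19.99 RPM in cortex and a peak in 2 gastrocnemius libraries, the higher at 6.04 RPM. At the far end of the clusters the mark was present in both tissues. Hoxd13 had 15.3 to 21.0 RPM in cortex, with a median of 17.8 RPM, and 7.503 to 17.2 RPM in gastrocnemius, with a median of 13.9 RPM (difference 0.43 ± 0.12, log2 and SE; limma, adjusted p = 0.0047). Hoxa13 had 12.3 ± 5.1 RPM and 6.29 ± 2.0 RPM (limma, adjusted p = 0.002).

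Factors of other lineages were marked in both tissues as well. Of 25 limb and mesenchyme factors 19 were higher in cortex and 0 in gastrocnemius, of 28 hindbrain, spinal cord and sensory factors 20 and 0, and of 24 endoderm, heart and blood factors 16 and 0, beside 28.1% and 28.3% of all TSSs tested. The single gastrocnemius peaks of Ckm, Vgll2, Hoxa5 and Prrx1 were all in gastrocnemius 5. The median differences of the 3 lists were 0.48, 0.41 and 0.38, and over the members called in all 19 libraries 0.42, 0.40 and 0.39, where the myogenic factors had 0.32. In the absence of the mouse without a Prnp peak 17, 19 and 13 members were higher in cortex and 0 in gastrocnemius. Without gastrocnemius 5 the medians were 0.39, 0.32 and 0.30, and the counts 18 and 0, 20 and 0, and 14 and 1. Prrx1, a factor of limb mesenchyme, had 6.74 to 14.3 RPM in cortex and a peak in 1 gastrocnemius library, at 3.16 RPM. Tbx4, a factor of the hindlimb, had 13.4 to 18.5 RPM in cortex and 6.88 to 16.7 RPM in gastrocnemius (limma, adjusted p = 0.0037). Pitx1, which specifies the hindlimb, had 13.9 ± 1.7 RPM and 12.7 ± 3.7 RPM (difference 0.17 ± 0.15, log2 and SE; limma, adjusted p = 0.33). Gata4, a cardiac and endodermal factor, had 16.0 ± 2.0 RPM and 13.0 ± 3.4 RPM (limma, adjusted p = 0.046). Its limma adjusted p was 0.11 without the mouse that lacked the Prnp peak. Among only the TSSs called in all 19 libraries the limma adjusted p was 0.13.

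Most genes of the signalling pathways tested were marked in every library. Of 38 Wnt, FGF, BMP and hedgehog genes 7 were higher in cortex, 1 in gastrocnemius and 30 past neither threshold, beside 28.1% and 28.3% of all TSSs tested. In all 19 libraries 30 were called, beside 8.1% of all TSSs. With TMM factors 15 were higher in cortex, beside 2807 of all 8754 TSSs tested, with equally many peaks 13, beside 2354 of 7808, and 5 when the mouse that lacked the Prnp peak was left out. Wnt9a had 2.26 to 11.6 RPM in cortex and no peak in gastrocnemius, and Ptch1, described above, was the 1 higher in gastrocnemius. Among 16 endothelial and immune genes tested 7 were higher in cortex and 2 in gastrocnemius, and among 10 satellite cell, fibroblast and Schwann cell genes 6 and 0, or 5 and 0 without that mouse, again beside 28.1% and 28.3% of all TSSs tested. By H3K27ac the endothelial markers were higher in gastrocnemius at 3 of 4 promoters and the connective tissue markers at 4 of 4, and of 3 immune markers tested 1 was higher in each tissue (by H3K4me3, 2 in cortex and 1 in gastrocnemius).

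Of 14 housekeeping genes 13 had no peak in any library, beside 56.5% of all TSSs. Eef1a1, a translation elongation factor with near-identical copies in the genome, had a peak in 8 of 10 gastrocnemius libraries and in 0 of 9 cortex libraries. Of 25 Polycomb and H3K27 demethylase genes 14 had no peak in any library, a share close to that of all TSSs, among them Ezh2, Ezh1, Eed and Suz12, which form Polycomb repressive complex 2 itself. Of the 9 tested 1 was higher in cortex and 4 in gastrocnemius, beside 28.1% and 28.3% of all TSSs tested, or 1 and 3 when the mouse that lacked the Prnp peak was left out. The 1 was Cdkn2b, a cell cycle inhibitor that is a target of Polycomb and no subunit or demethylase, which had 7.85 to 13.6 RPM in cortex and a peak in 4 of 10 gastrocnemius libraries. Of 22 Alzheimer genes 14 had no peak in any library, again near the share of all TSSs, and of 7 tested 4 were higher in gastrocnemius, beside 28.3% of all TSSs tested, or 2 of 6 with equally many peaks. App had a peak in 3 of 10 gastrocnemius libraries and no cortex library.

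**Figure D4:**
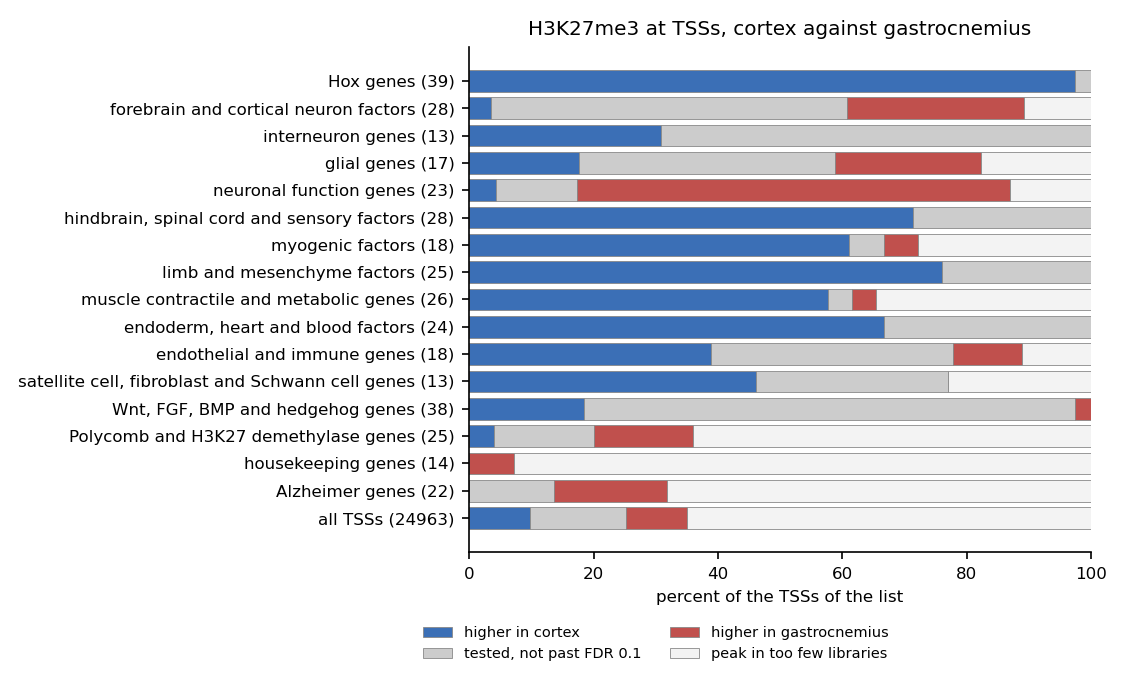
Share of the TSSs of each gene list that had more H3K27me3 in cortex, more in gastrocnemius, neither at an FDR of 0.1, or a peak in too few libraries to be tested. Numbers in brackets are TSSs, and the lowest bar holds all 24963. In these values Hox genes (38 of 39) have the largest share higher in cortex and neuronal function genes (16 of 23) the largest share higher in gastrocnemius. With TMM factors or equally many peaks the hindbrain, spinal cord and sensory factors (28 of 28) pass the Hox genes.

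The active marks, measured with other antibodies in the same tissues, were compared over the groups of promoters made by H3K27me3 calls. Over all TSSs tested, H3K27ac was higher in cortex at 9459 of 17861 (53%) and higher in gastrocnemius at 2504 (14%), with a median difference of 0.29 (log2). H3K4me3 was higher in cortex at 10089 of 16213 (62.2%) and in gastrocnemius at 2561 (15.8%), with a median of 0.35. Where H3K27me3 was called in every gastrocnemius and no cortex library, H3K27ac was higher in cortex at 315 of 324 TSSs and in gastrocnemius at 1. Where it was called in every cortex and no gastrocnemius library, H3K27ac was higher in gastrocnemius at 144 of 184 TSSs and in cortex at 5. Relative to the median of all TSSs, the medians of these groups were 1.15 and -1.01. H3K4me3 was higher in cortex at 300 of 313 TSSs of the first group and higher in gastrocnemius at 135 of 159 of the second, with medians of 1.01 and -1.23 relative to all TSSs. Leaving out the mouse that lacked the Prnp peak, H3K27ac was higher in cortex at 8513 of 17772 TSSs and in gastrocnemius at 2505, and H3K4me3 at 9327 and 2562 of 16137. Over the same groups, H3K27ac was then higher in cortex at 315 of 324 and in gastrocnemius at 145 of 182, and H3K4me3 at 298 of 313 and 137 of 158.

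Peaks of the active marks were also found at TSSs where H3K27me3 was called. Of the 328 TSSs with H3K27me3 in gastrocnemius only, 253 (77.1%) had an H3K4me3 peak and 168 (51.2%) an H3K27ac peak in every gastrocnemius library as well, beside 56.6% and 57.2% of all TSSs. Of the 209 TSSs with H3K27me3 in cortex only, 112 (53.6%) had an H3K4me3 peak and 99 (47.4%) an H3K27ac peak in every cortex library, beside 58.3% and 58.9% of all TSSs. Of the 2021 TSSs with H3K27me3 in all libraries, 1194 (59.1%) had an H3K4me3 peak in every cortex library, near the share of all TSSs, and 937 (46.4%) in every gastrocnemius library. H3K27ac peaks were fewer there, in every cortex library at 847 (41.9%) and in every gastrocnemius library at 569 (28.2%). Eya4, of the group with H3K27me3 in cortex only, had H3K4me3 of 27.01 RPM in cortex and 30.7 RPM in gastrocnemius (limma, adjusted p = 0.18), while Gria2, of the group in gastrocnemius only, had 54.5 RPM in cortex and no H3K4me3 peak in gastrocnemius. Whether the marks were on the same chromosomes or in different cells of the tissue was not tested.

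**Figure D5:**
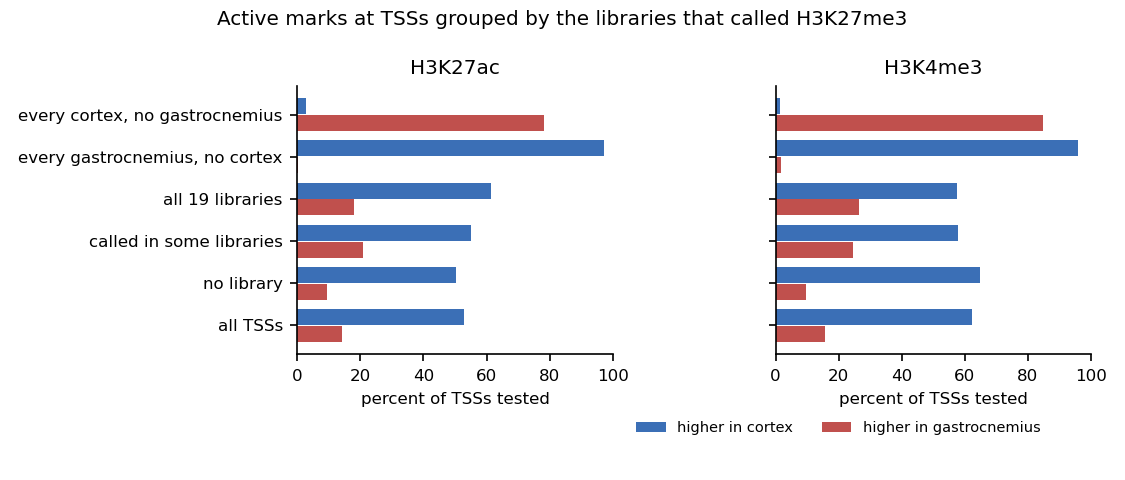
Percent of TSSs tested with H3K27ac (left) or H3K4me3 (right) higher in cortex or in gastrocnemius (limma, FDR under 0.1), for TSSs grouped by the libraries that called H3K27me3 and for all TSSs. The group with H3K27me3 in every gastrocnemius and no cortex library has 315 of 324 TSSs higher in cortex for H3K27ac, and the group with H3K27me3 in every cortex and no gastrocnemius library has 144 of 184 higher in gastrocnemius.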

How the data were processed

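Chromatin from cortex and gastrocnemius was immunoprecipitated and sequenced. Reads were mapped by the authors to the mm10 assembly using BWA and filtered with SAMtools, and epic2 was run on each library by itself. Versions of SAMtools and epic2 are not given in the sources used here. In the deposited peak lists the count is the whole number of reads in a peak, not normalized, and the score that the authors' epic2 run gave was used here only to rank peaks. Peak ends lie on a 200 bp grid, and the smallest gap between H3K27me3 peaks was 800 bp in the libraries used. Reads outside peaks were not analysed here.

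Only chromosomes 1 to 19 were used, since sexes are mixed and GEO's labels do not give them. The 24963 TSSs are those of curated RefSeq genes, 1 per gene. Reads of a peak were spread evenly over its length, and RPM is per M peak reads. Sites are merged peaks of the 19 libraries. Libraries were compared by exact permutation over 92378 relabellings. Site counts were tested by edgeR 4.0.16 with TMM at the 4683 sites called in all 19 libraries. TSS values were tested by limma 3.58.1 (trend, robust) and calls by Fisher's exact test. Both used TSSs or sites called in at least 3 libraries of a tissue. All had Benjamini-Hochberg adjustment at an FDR under 0.1. Python 3.11.15, NumPy 2.4.6, SciPy 1.17.1 and R 4.3.3 were used, with DESeq2 1.42.0 as an alternative. The code was tested on simulated data. The labels do not say more of replicates than that they are separate samples; animal codes in the deposited names show 10 mice.

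Replicate numbers in the titles do not pair the tissues throughout, so mice were paired by animal code. Same-mouse deviations at the 4683 sites called in all libraries correlated by -0.084 to 0.071, and 2 of 9 cortex libraries correlated best with their own mouse.

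Named were genes of 16 lists, the 10 TSSs of each direction with the highest level among those called in every library of 1 tissue and none of the other, the 6 with the highest level in both, and the 5 widest sites of each direction. The members, gene lists and tests were chosen with earlier results of these data known. Depth ranged from 2.99 M to 18.2 M reads in peaks. Some members of the lists are counted but not reported here by name.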

Additional observations from a re-analysis of the deposited data

Results flagged for a closer look

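Of 61 groups of library values checked, 2 had a library far from the rest, where chance alone flags about 1 in 20. Gastrocnemius 5 covered 484.11 Mb, apart from the other gastrocnemius libraries, and was also the deepest. At the Hoxa4 TSS, cortex 5 had 22.248 RPM, apart from the other cortex libraries.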

How the results depend on the processing

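Of the library values and counts of calls under other settings, 335 kept their side of an unadjusted p of 0.05 or stayed within 1.5 times, 18 counts moved further, 6 values changed sign, 6 (all peak numbers, which did not pass after adjustment in all 19 libraries) went above that p and 1 below it. Scaled per M peak reads only, site counts gave 1398 and 1673 calls. Without the libraries that carry an S code, cortex minus gastrocnemius was 5632 peaks (exact permutation p = 0.0559), 46.3 Mb covered, 0.24 kb in median width and 67.4 promoters called, the last 3 in the opposite direction. Among those that carry one the differences were 7990 peaks (exact permutation p = 0.133) and 0.608 percentage points in the promoter share of reads, the latter in the opposite direction. With equally many top-scoring peaks, promoters called differed by -645 (exact permutation p = 0.00186) and 5644 sites were called more often in cortex. With the mouse as a block the covered length differed by 16.5 Mb, and counts of calls fell to 4101 and 1615 sites (cortex, gastrocnemius) and 682 and 889 TSSs. The block moved no other count of calls by over 1.5 times. Site counts over all 32653 consensus sites gave 10709 and 7628 calls with uncalled sites at 0 reads, and 3852 and 2568 with them set to the lowest density seen in that library. Fixed 5 kb windows gave 26271 and 21821 presence calls, and only the TSSs called in all 19 libraries 319 and 140 signal calls, of fewer TSSs tested. Leaving out 1 library gave 4426 to 6343 peaks (unadjusted p above 0.05 without cortex 6, 8 or 9 or gastrocnemius 4), -17.8 to 16.5 Mb, the latter without gastrocnemius 5, and 864 to 1178 TSSs called more often in cortex, the fewest without gastrocnemius 2, 3, 4, 7 or 8. Differences near 0 changed sign (log2). Neurod2 gave -0.0192 with the block, -0.0087 with the S code as a covariate and -0.0192 to 0.128 leaving out 1 library. Tbr1 gave 0.0336 with TMM factors, 0.0568 with equally many peaks and -0.114 to 0.0491 leaving out 1 library. Slc17a7, a vesicular glutamate transporter, gave -0.0202 in a 2.5 kb window. Prnp gave 0.00065 with equally many peaks and -0.776 to 0.652 leaving out 1 library. Gad1 passed with TMM factors, with equally many peaks, and without cortex 2 or gastrocnemius 2. The cause of these shifts was not tested. The settings without cortex 5 and gastrocnemius 6 and with only the libraries that carry an S code were chosen after the data were seen.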

Other observations

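Of the 6 promoters with the highest level in both tissues, 4 lie on chromosome 1 (Ugt1a1, Mroh2a, Hjurp and Trpm8). Their starts lie between positions 88211959 and 88306735 and they share peaks, so they are not separate measurements. Mir101c, at position 3038743 of chromosome 9, had 61.1 to 88.4 RPM in cortex and 34.9 to 135 RPM in gastrocnemius, and Ugt1a1, a liver enzyme gene, had 29.9 ± 9.4 RPM and 25.03 ± 9.3 RPM. Dnajb3, which lies near Ugt1a1 on chromosome 1, was called in every gastrocnemius and no cortex library, with 7.24 to 23.4 RPM. In gastrocnemius 5, 9 and 10 its levels of 11.4, 23.4 and 20.9 RPM equal those of Ugt1a1. It is therefore not a separate measurement in these libraries. Leaving out peaks with over 10 times the mean read density of their library changed the counts of TSSs higher in cortex and gastrocnemius to 2443 and 2462.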
